A study of Mus musculus with 221 samples.

Results

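The 6 mRNAs described here are the mitochondrially encoded transcripts of respiratory complexes III, IV and V: mt-Cytb of complex III, mt-Co1, mt-Co2 and mt-Co3 of complex IV, and mt-Atp6 and mt-Atp8 of complex V. They were taken by name from a count table of 55291 genes, of which 37 lie on the mitochondrial genome and 13 of those code for proteins. The remaining 7 mitochondrial mRNAs code for complex I. All 6 were detected in every library and passed the filter on low counts.

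Each library came from 1 early 2-cell mouse embryo made by in vitro fertilization and sequenced by Smart-seq2, which copies polyadenylated RNA into cDNA and amplifies it by PCR. The sires were C57BL/6N males that received a high-fat diet (HFD, 55.2% of the libraries) or a low-fat diet (LFD, n = 99 embryos) for 2 weeks from 6 weeks of age, and the oocytes of both groups came from unexposed C57BL/6N-mtST females, which have C57BL/6N nuclear DNA and mitochondrial DNA of the Staudach (ST) line. Thawed sperm of a few males served each diet, with other males on each date, and the labels give neither sire, fertilization date nor sex, so embryos were treated as replicates and variation between sires cannot be told apart from diet. The comparison asks whether the diet of the father is reflected in the mitochondrial transcripts of the embryo.

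Mitochondrial DNA is transcribed as long RNAs that run over many genes, and tRNAs standing between the mRNAs are cut out to release them. Cytochrome b (mt-Cytb) carries electrons within complex III, the subunits encoded by mt-Co1, mt-Co2 and mt-Co3 form the catalytic core of complex IV, where oxygen is reduced, and the products of mt-Atp6 and mt-Atp8 belong to the proton-driven membrane part of ATP synthase. All other subunits of these complexes are encoded in the nucleus, so that each complex is built from the products of both genomes. Early embryos depend on mitochondria inherited through the oocyte.

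Median total counts were 5718556 in HFD and 5701723 in LFD embryos (range 1937251 to 17246791 over both), and 18925 and 18723 genes had a count at the median. Markers of the 2-cell embryo and of the oocyte were detected in both groups (6 of 6 and 8 of 8 genes with a median above 0). Of 10 macrophage markers, 5 had a median of 0, among them Adgre1, and 5 had a median above 0. The summed level of all 10 ran from -1 to 11.74 log2 CPM (counts in each 1000000 of the library, 0.5 added) in HFD and to 6.07 in LFD embryos. Its median was 5.15 in HFD and 5.23 in LFD embryos. Cumulus (5 of 8 in HFD, 6 of 8 in LFD) and sperm markers (5 of 7 in both) mostly had a median of 0, including Has2 and Prm1. The summed level of all cumulus markers still had medians of 4.08 in HFD and 3.86 in LFD, and that of the sperm markers 1.16 and 1.43 log2 CPM. As few as 11364 genes had a count in an embryo, and 13 embryos (7 HFD, 6 LFD) stood apart with fewer than 16000.

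On the mitochondrial chromosome of build GRCm38 all 6 genes lie on the plus strand, and all are single exons. mt-Co1 spans MT:5328-6872, mt-Co2 MT:7013-7696, mt-Atp8 MT:7766-7969, mt-Atp6 MT:7927-8607, mt-Co3 MT:8607-9390 and mt-Cytb MT:14145-15288. The end of mt-Atp8 is also the start of mt-Atp6, and these 43 shared bases are shown because counts in them belong to neither gene alone. The start codon of mt-Atp6 and the stop codon of mt-Atp8 stand in capitals, and the strand is the plus strand (MT:7927-7969).
mt-Atp8 and mt-Atp6 overlap: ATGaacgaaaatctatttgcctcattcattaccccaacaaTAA
The last 30 bases of the coding parts differ in how they end, with the stop codon or what stands for it in capitals.
mt-Cytb: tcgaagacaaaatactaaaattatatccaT
mt-Co1: gaggaaccaacctatgtaaaagtaaaaTAA
mt-Co2: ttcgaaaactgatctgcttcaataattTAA
mt-Co3: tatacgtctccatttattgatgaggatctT
mt-Atp6: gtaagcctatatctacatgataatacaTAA
In mt-Co1 (515 codons), mt-Co2 (228), mt-Atp6 and mt-Atp8 (68) the stop codon is written in the DNA. In mt-Cytb and mt-Co3 a single T follows the last of 381 and 261 codons, and the stop codon arises only when the poly(A) tail is added, a known feature of mitochondrial mRNAs. These bases were read from GENCODE M21 transcripts of the C57BL/6J genome, and the Staudach sequence used for alignment may differ from them.

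The 6 mRNAs together took 3.56% ± 1.51 (SD) of all counts in HFD and 2.74% ± 0.97 in LFD embryos, and 70.97% ± 4.01 and 70.53% ± 3.69 of the counts of the 13 mitochondrial mRNAs. Among themselves, mt-Cytb (29.1% ± 7.1 over all embryos), mt-Co1 (25.9% ± 5.2) and mt-Atp6 (24.2% ± 2.8) held most of the counts. mt-Co3 held 12.98% ± 2.64, mt-Co2 6.37% ± 1.38 and the short mt-Atp8 1.42% ± 0.32. The share of mt-Cytb varied most, from 15.9% to 62.7% of the counts of the 6.

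Levels of different genes were compared per kilobase of annotated length. mt-Atp6 was the most abundant, with a median of 10497 CPM per kilobase over all embryos, followed by mt-Cytb (7048), mt-Co1 (5091), mt-Co3 (5040), mt-Co2 (2814) and mt-Atp8 (1994). Within embryos, mt-Atp6 exceeded mt-Cytb 1.42-fold (higher in 95.9% of embryos), mt-Cytb exceeded mt-Co1 1.52-fold (84.2%), mt-Co3 exceeded mt-Co2 1.79-fold (every embryo) and mt-Co2 exceeded mt-Atp8 1.33-fold (82.8%). Each of these steps gave p = 1e-05 in a 2-sided sign-flip permutation test (100000 draws, smallest p possible), adjusted p = 1.07e-05 over 15 pairs. The neighbours mt-Co1 and mt-Co3 did not differ beyond their spread (1.02-fold, mt-Co1 higher in 53.4% of embryos, permutation p = 0.17). The 3 complex IV mRNAs were thus unequal, with mt-Co2 below the other two.

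The place of mt-Atp8 depended on how its overlap was treated. Reads touching both mt-Atp8 and mt-Atp6 were left out of the count table by the counting defaults, and only 161 of the 204 bases of mt-Atp8 belong to no other gene. Per kilobase of these unshared bases the median of mt-Atp8 was 2527 CPM, and mt-Co2 exceeded it only 1.05-fold (61.1% of embryos, permutation p = 0.084, adjusted p = 0.09). mt-Atp6, which keeps 637 of its 681 bases, remained above mt-Atp8 in every embryo on either scale (5.17-fold per annotated and 4.37-fold per unshared kilobase). Both stand on 1 RNA, and a read had to miss the shared bases to be counted, which costs the shorter mt-Atp8 more reads. Dividing by unshared bases does not correct for this. Neither scale can therefore settle the place of mt-Atp8, and no difference in RNA is read from these values.

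**Figure D1:**
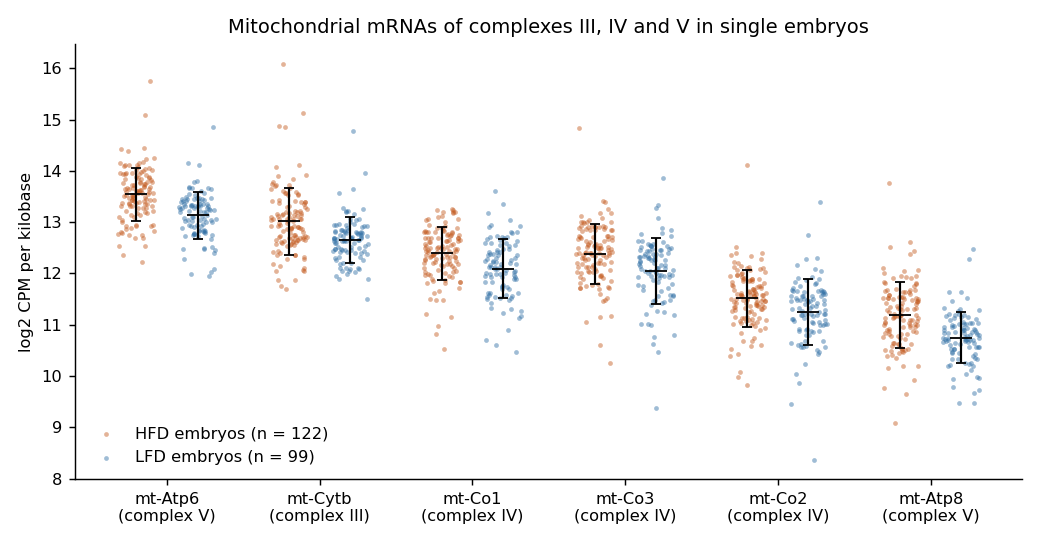
Levels of the 6 mRNAs in log2 CPM per kilobase of annotated length, with 1 point for each embryo and the mean ± SD in black. HFD means lie above LFD means for each mRNA while the points of the diets overlap, and mt-Atp6 is highest and mt-Atp8 lowest.

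All 6 mRNAs rose in HFD embryos, by 1.23-fold to 1.48-fold, which was 6 of 6 against 1.26% of the 14820 genes tested that rose (2.15% called in either direction, 0.891% lower). Of all genes, 186 rose and 132 fell, a split that moved to 164 and 172 with DESeq2 size factors and to 148 and 203 with nuclear counts as library size, and the 6 kept their direction in both. The calls were lost without embryos numbered 31 to 70 of either diet, a choice made after seeing the data. With these left out (84 HFD and 60 LFD embryos left), edgeR called 0 of 6 at an FDR under 0.05 and 5 of 6 at an unadjusted p under 0.05. The test was edgeR's quasi-likelihood test with Benjamini-Hochberg adjustment over all genes (FDR). Levels here are shares of the counts of a library, not amounts per embryo. More mitochondrial RNA per cell, more mitochondria per embryo and less of the other RNA therefore cannot be told apart in these whole embryos.

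For mt-Cytb, levels in HFD embryos ran from 3822 to 79680 CPM with a median of 9142, and in LFD embryos from 3338 to 31988 with a median of 7437. HFD embryo 42 held the highest value, 4 HFD embryos exceeded the whole LFD group, and 72.1% of HFD embryos lay above the LFD median. The change was 0.53 on the log2 scale (SE 0.09, FDR = 1.58e-05). Its size varied with the method, at 0.52 in DESeq2 and 0.39 in limma-voom. In edgeR it was 0.41 with genes detected as covariate and 0.43 without libraries under 16000 genes. The means of log2 CPM were 13.22 ± 0.65 (SD) for the HFD and 12.85 ± 0.45 for the LFD group, which is a difference smaller than the spread within either diet.

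Among the complex IV mRNAs, mt-Co1 ran from 2284 to 15157 CPM in HFD embryos (median 8569) and from 2200 to 19326 in LFD embryos (median 6863). Its highest value thus lay in an LFD embryo, number 73, 2 LFD embryos lay above the highest HFD embryo, and the groups overlapped over most of their range. mt-Co1 rose by 0.31 (SE 0.08, FDR = 0.00829), with 75.4% of HFD embryos above the LFD median. mt-Co2 ran from 618 to 12171 CPM (median 2035) in HFD and from 225.8 to 7359 (median 1741) in LFD embryos. It had the smallest change of the 6, 0.30 (SE 0.09, FDR = 0.0421), with 69.7% of HFD embryos above the LFD median. mt-Co3 ran from 956 to 22830 CPM (median 4257) in HFD and from 524 to 11738 (median 3534) in LFD embryos. It rose by 0.38 (SE 0.09, FDR = 0.00332), and HFD embryo 28 was highest for both mt-Co2 and mt-Co3, the 1 HFD embryo above all LFD embryos in each.

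For complex V, mt-Atp6 ran from 3254 to 37471 CPM (median 8247) in HFD and from 2697 to 20255 (median 6419) in LFD embryos. mt-Atp8 ran from 110 to 2844 CPM (median 476) in HFD and from 145 to 1167 (median 349) in LFD embryos. HFD embryo 28 was again highest for both, LFD embryo 26 was the highest LFD embryo, and 77.9% of HFD embryos lay above the LFD median for each. mt-Atp6 rose by 0.49 (SE 0.07, FDR = 3.24e-07) and mt-Atp8 by 0.57 (SE 0.09, FDR = 3.24e-07).

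The embryo number in the sample titles was used as a stand-in for unknown dates or batches, and 38 HFD embryos numbered 31 to 70 had fewer genes with a count (range means of 16136 to 18076) than the other HFD ranges (18535 to 19631). In ranges of 10 numbers that held both diets, HFD means were higher in 11 of 11 ranges for mt-Atp6 and mt-Atp8, 10 of 11 for mt-Cytb, and 9 of 11 for mt-Co1, mt-Co2 and mt-Co3. The labels do not link equal numbers of the diets. A shared range is thus not known to be a shared batch, and these counts are a description only. Without HFD embryos 31 to 70, 5 of the 6 were still called, against 0.405% of all genes that rose. mt-Cytb was then not called (0.23, SE 0.08, FDR = 0.153), whereas without also the libraries under 16000 genes it was (0.30, SE 0.07, FDR = 0.00332). Without embryos 31 to 70 of either diet, 0.113% of all genes rose and none of the 6 was called. Changes were then 0.40 for mt-Atp8 (SE 0.11, FDR = 0.101), 0.30 for mt-Co3 (FDR = 0.33), 0.28 for mt-Atp6 (FDR = 0.263), 0.25 for mt-Co2 (FDR = 0.585), 0.19 for mt-Co1 (FDR = 0.654) and 0.10 for mt-Cytb (FDR = 0.937). All 6 kept their direction. LFD embryos 31 to 70 had range means of 3.57% to 4.18% of counts on the mitochondrial genome, and the other LFD ranges 3.73% to 6.33%. In HFD embryos these means were 5.51% to 7.39% for numbers 31 to 70 and 4.32% to 6.64% for the other ranges. The part of either group in the lost calls was not tested. With number ranges as a random effect in limma-voom, 5 of 6 were called against 0.344% of all genes that rose, and mt-Co2 was not (FDR = 0.109). The change of mt-Co2 was also not past the threshold with DESeq2 size factors (FDR = 0.0604), with nuclear counts as library size (FDR = 0.0634), or with the Y-linked level (FDR = 0.0564) or the macrophage marker level (FDR = 0.0829) as covariate in edgeR.

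Of the 7 complex I mRNAs 4 rose, beside 1.26% of all genes that rose. All 7 had a change above 0 and an unadjusted edgeR p under 0.05. The median change of the 7 was 0.37 (range 0.23 to 0.40) beside 0.43 (range 0.30 to 0.57) for the 6 and 0.01 for all genes tested. mt-Nd1, mt-Nd2, mt-Nd4 and mt-Nd4l rose (FDR from 0.000125 to 0.00511), while mt-Nd3 (0.27, FDR = 0.0808), mt-Nd5 (0.23, FDR = 0.125) and mt-Nd6 (0.34, FDR = 0.061) did not pass the threshold. mt-Nd6 lies on the minus strand and overlaps mt-Nd5, and as Smart-seq2 does not mark strand its counts are uncertain. Without embryos 31 to 70 of either diet 0 of the 7 were called by edgeR, and mt-Nd6 turned to -0.11 (FDR = 0.963). No difference between the 2 sets was tested.

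Ratios of counts within a library need no scaling by its total. None of the 15 ratios among the 6 mRNAs differed between the diets (2-sided permutation of diet labels, lowest adjusted p = 0.124), and 4 had an unadjusted p under 0.05. The differences ran from -0.08 for mt-Cytb to mt-Atp8 to 0.19 for mt-Atp8 to mt-Co2 on the log2 scale. The outermost bounds of the 15 unadjusted 95% intervals were 0.875-fold (mt-Cytb to mt-Atp8) and 1.26-fold (mt-Atp8 to mt-Co2), and most intervals were narrower, such as 0.983-fold to 1.08-fold for mt-Co3 to mt-Co1. These results changed with the embryos that entered. Without HFD embryos 31 to 70 the 0.19 became 0.0015 and 8 of 15 ratios turned direction, while over the embryos whose number both diets share 7 of 15 differed. mt-Atp6 to mt-Atp8, the pair on 1 RNA, differed by -0.04 (95% interval -0.11 to 0.02, permutation p = 0.229), with means of 4.09 ± 0.28 for HFD and 4.13 ± 0.20 for LFD embryos.

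Relative to their nuclear partners, all 6 mRNAs were higher in HFD embryos. The summed counts of 9 nuclear complex III, 18 complex IV and 18 complex V subunits served as denominators, and these sums themselves lay close together (7.17 ± 0.48 in HFD and 7.13 ± 0.37 in LFD for complex III, 10.16 ± 0.28 and 10.16 ± 0.25 for complex IV, 10.32 ± 0.24 and 10.26 ± 0.19 log2 CPM for complex V). mt-Cytb to nuclear complex III was 1.26-fold higher (95% interval 1.14 to 1.40, permutation p = 4e-05, adjusted p = 7.5e-05). For complex IV the ratios were 1.23-fold higher for mt-Co1 (interval 1.10 to 1.36), 1.196-fold for mt-Co2 (1.08 to 1.33) and 1.26-fold for mt-Co3 (1.13 to 1.41), with adjusted p of at most 0.00066 in these permutation tests. For complex V they were 1.28-fold for mt-Atp6 (1.16 to 1.40) and 1.31-fold for mt-Atp8 (1.18 to 1.47), both at adjusted p = 3e-05, with 73.8% and 73% of HFD embryos above the LFD median. HFD means were higher in 10 or 11 of the 11 number ranges for each of the 6 ratios, though the labels do not link these ranges between diets. The adjusted permutation p was at most 0.0043 without HFD embryos 31 to 70 and at most 0.0454 without embryos 31 to 70 of either diet. These p were adjusted over 6 ratios and those of the levels over all genes, so their calls cannot be compared. As the denominators lay close together, the ratios largely restate the levels.

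**Figure D2:**
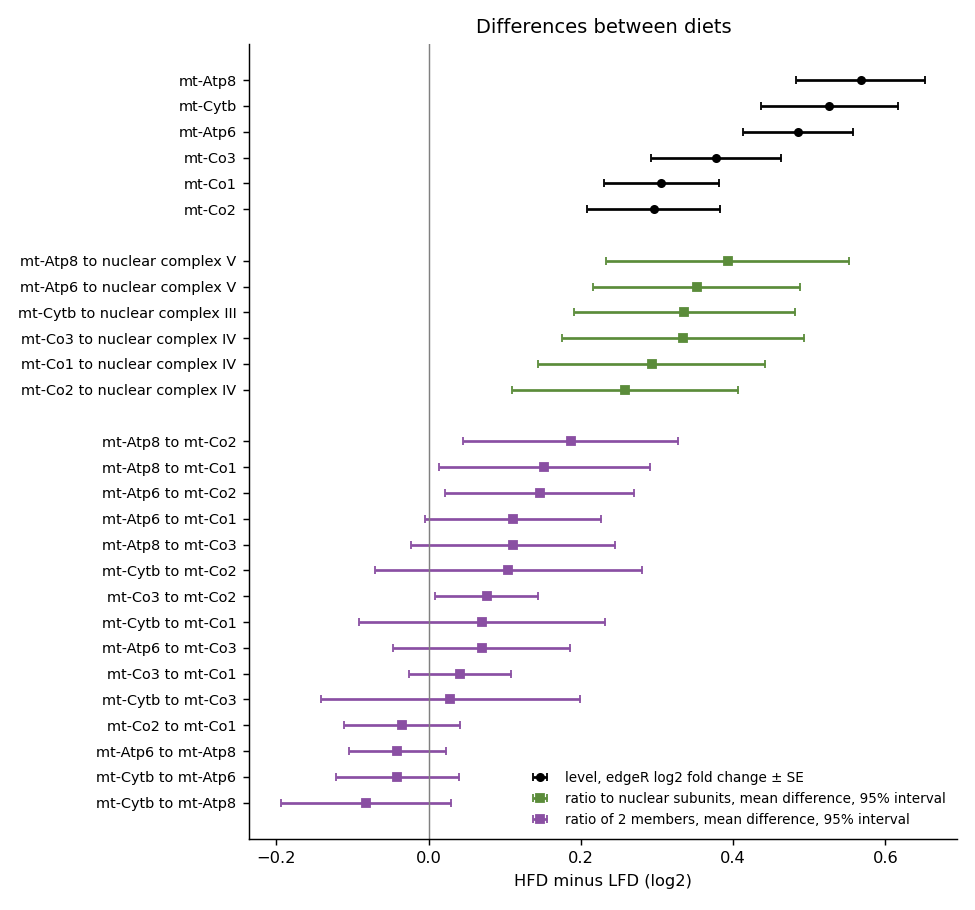
Differences between HFD and LFD embryos on the log2 scale for the levels of the 6 mRNAs (edgeR, bars are SE), their ratios to the summed nuclear subunits of the same complex and the 15 ratios among them (mean differences, bars are 95% intervals). Levels and ratios to nuclear subunits lie right of 0, while ratios among the 6 lie between -0.08 and 0.19.

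The nuclear subunits themselves were called about as often as other genes, which does not show whether they changed as a group. Of 43 tested subunits of complexes III, IV and V, 1 rose and 0 fell, a share near the 2.15% of all genes called, and 10 had an unadjusted p under 0.05. It was Cox5b, a subunit of complex IV (0.25, SE 0.06, FDR = 0.0126), which was not called without HFD embryos 31 to 70 (0.18, FDR = 0.275) or with number ranges as a random effect in limma-voom (0.24, FDR = 0.0712), nor without embryos 31 to 70 of either diet (0.14, FDR = 0.808). Over all 43, 37 changes were above 0, with a median of 0.11 beside 0.01 over all genes. The shares of all genes with a change above 0 or an unadjusted p under 0.05 were not counted. The nearest to the threshold in complex IV were Cox5a (0.16, FDR = 0.232) and Cox7c (0.31, FDR = 0.244), in complex V Atp5md (0.30, FDR = 0.0712), Atp5k (0.33, FDR = 0.107) and Atp5g1 (0.18, FDR = 0.251), and in complex III Uqcr10 (0.22, FDR = 0.338), Uqcrh (0.16, FDR = 0.407) and Uqcrb (0.20, FDR = 0.622).

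By edgeR 0 of 25 tested assembly factors, which help to build these complexes, were called (3 had an unadjusted p under 0.05), and DESeq2 and limma-voom also called 0. edgeR called 2.15% of all genes tested, so a list of this size may well hold no call. No lack of change is read from it. Without libraries under 16000 genes 1 of 25 was called higher, Cmc1 (0.23, FDR = 0.0405), beside 2.28% of all genes that rose in that setting. The lowest FDR were those of Cmc1 (0.21, FDR = 0.193), Atpaf2 (0.22, FDR = 0.203) and Tmem70 (0.16, FDR = 0.222). Among 15 factors of mitochondrial mRNA stability and maturation 0 were called by edgeR, DESeq2 or limma-voom, and 1 had an unadjusted p under 0.05 in edgeR. Beside the same 2.15% of all genes, this too shows no lack of change. Their median change was -0.02, and the values were -0.27 for Fastk (FDR = 0.355), -0.20 for Lrpprc, which stabilizes mitochondrial mRNAs (FDR = 0.641), and 0.09 for Fastkd3 (FDR = 0.721).

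Across embryos the 6 mRNAs did not vary as 1 unit. As a description over all embryos, which share library depth and protocol, log2 CPM of mt-Co1, mt-Co2 and mt-Co3 correlated with each other at r = 0.89 to 0.92. mt-Cytb, mt-Atp6 and mt-Atp8 correlated with each other at r = 0.76 to 0.92. mt-Cytb followed the complex IV mRNAs only loosely, at r = 0.41 with mt-Co1, 0.38 with mt-Co2 and 0.44 with mt-Co3, and within diets at r = 0.27 in HFD and 0.54 in LFD embryos for mt-Co1. mt-Atp6 lay between, at r = 0.66 with mt-Co1 and 0.86 with mt-Cytb. On the genome mt-Atp8 and mt-Atp6 stand between mt-Co2 and mt-Co3, while mt-Cytb lies apart from the other five genes behind the complex I genes.

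**Figure D3:**
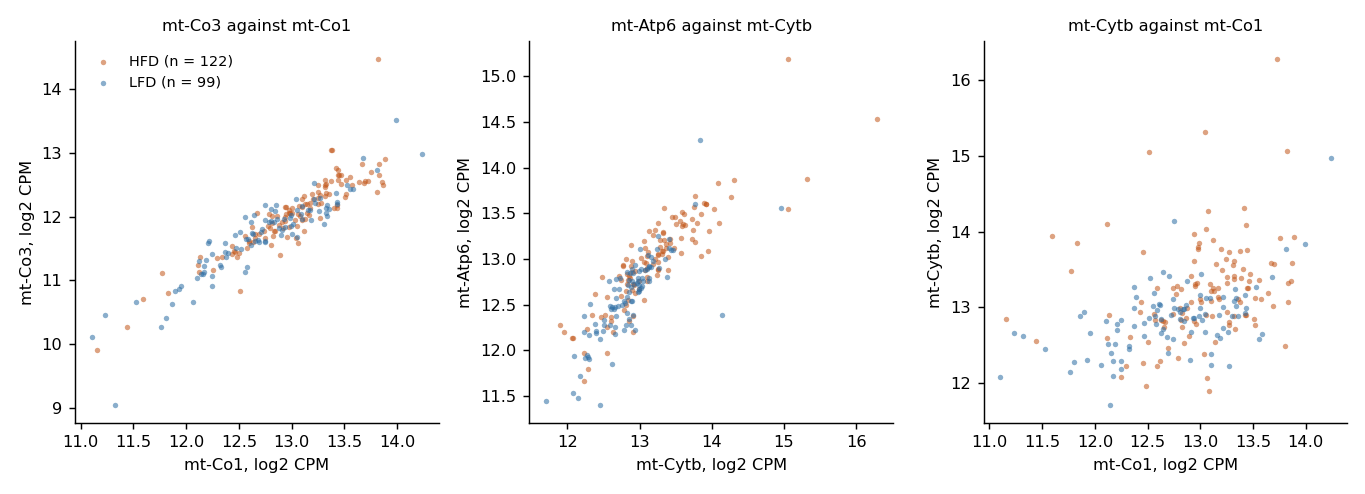
Levels of 2 mRNAs against each other in log2 CPM, with 1 point for each embryo. mt-Co3 against mt-Co1 (r = 0.92) and mt-Atp6 against mt-Cytb (r = 0.86) form narrow bands, whereas mt-Cytb against mt-Co1 (r = 0.41) is wide.

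The ratio of mt-Cytb to mt-Co1 had the wider spread in HFD embryos, with a log2 ratio of 0.20 ± 0.71 (range -1.32 to 2.56) against 0.13 ± 0.51 (range -1.05 to 1.43) in LFD embryos. It was highest in HFD embryo 42, where mt-Cytb reached 5.88 times the counts of mt-Co1, and in HFD embryo 48 (5.84 times). These had only 11415 and 12015 genes with a count. The lowest ratio, 0.40 times, was also that of an HFD embryo, with 19446 genes. Over all embryos the ratio correlated with the number of genes detected at Spearman's rho = -0.44 (all embryos, same libraries), and with total counts at -0.16.

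The high ratios were gathered in few number ranges. Mean log2 ratios in HFD embryos were 0.67 ± 0.87 for numbers 31 to 40 (n = 9), 1.22 ± 1.02 for 41 to 50 (n = 10) and 0.86 ± 0.61 for 61 to 70 (n = 9), and between -0.44 and 0.14 in the other HFD ranges. LFD ranges lay between -0.27 and 0.42. Ranges 41 to 50 and 61 to 70 also had the fewest genes with a count among HFD ranges, 16136 and 16823 on average, but range 31 to 40 had 18076, more than range 51 to 60 (18024), whose ratio was 0.07. The part of detected genes in the ratio was not tested. As HFD embryos 31 to 70 held the high ratios, leaving them out alone lowers the HFD mean by construction, and no difference is read from it. Leaving out embryos 31 to 70 of either diet also removes these high HFD ratios, and was a choice made after these values were seen. The differences of mt-Cytb to mt-Atp6 (-0.15, adjusted permutation p = 0.0137) and to mt-Atp8 (-0.22, 0.0137) were then below 0. No difference is read from these values either.

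**Figure D4:**
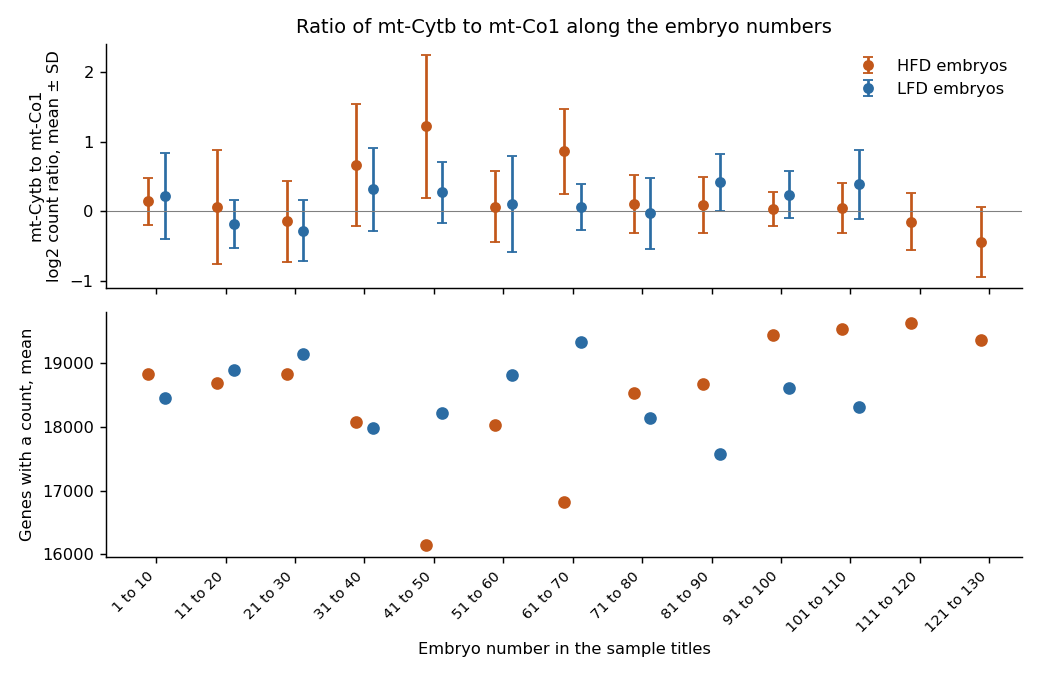
Mean log2 ratio of mt-Cytb to mt-Co1 counts (± SD over embryos, upper panel) and mean number of genes with a count (lower panel) in ranges of 10 embryo numbers. HFD ranges 31 to 40, 41 to 50 and 61 to 70 have the highest ratios, and 41 to 50 and 61 to 70 the fewest genes.

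mt-Ts1, the tRNA for serine on the opposite strand, borders mt-Co1 and shares its last 3 bases (MT:6870-6938, minus strand). Its sequence is shown because the table gave it counts like those of mt-Co1, with the shared bases in capitals.
mt-Ts1: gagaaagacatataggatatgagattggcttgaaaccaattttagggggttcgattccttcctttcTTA
The median of mt-Ts1 was 5087 CPM per kilobase against 5091 for mt-Co1, the log2 ratio per kilobase was 0.05 ± 0.20 over all embryos, and the levels correlated at r = 0.94. By diet mt-Ts1 changed by 0.30 (SE 0.08, FDR = 0.0251), close to the 0.31 of mt-Co1. Smart-seq2 does not mark strand while the counting was set to the reverse strand, so reads of the opposite strand at this place cannot be told apart from those of mt-Ts1. The mRNA of mt-Co1 is known to run on past its stop codon across this place.

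Outside the mitochondrial genome no gene followed the 6 as closely. Among 8928 genes whose mean reached 3 log2 CPM, ranked by Spearman's rho with the mean of the 6 after removal of the diet means (all embryos, shared libraries), mt-Nd4 (0.90), mt-Nd1 (0.86), mt-Ts1 (0.82) and mt-Nd2 (0.81) came first. The 6 leading nuclear genes were Spry2 (0.52), Mt1 (0.49), Gpx1 (0.49), Ndufa2 (0.47), Larp1b (0.46) and Eloc (0.46). Against the summed nuclear subunits of the same complex, Pearson's r was 0.41 in HFD and 0.38 in LFD embryos for mt-Cytb, 0.14 to 0.46 for the complex IV mRNAs and -0.09 to 0.23 for mt-Atp6 and mt-Atp8. Spearman's rho, the measure of the ranking above, was 0.394 in HFD and 0.385 in LFD embryos for mt-Cytb. For the complex IV mRNAs it was only 0.03 to 0.29, and for mt-Atp6 and mt-Atp8 -0.10 to 0.24.

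Nuclear copies on chromosome 1 carry near-identical sequence, so their counts and those of the mRNAs are uncertain, and where the reads of the copies came from was not tested. Gm10925 (1:24613974-24614651), Gm28437 (1:24613189-24613971) and Gm28661 (1:24614885-24615565) share 100% of their stretches of 31 bases with mt-Atp6, mt-Co3 and mt-Co2, and Gm29216 (1:24615706-24616197) shares 97.2% with mt-Co1. No copy reached 80% for mt-Cytb or mt-Atp8. These shares hold for C57BL/6J transcripts, not for the Staudach sequence to which the reads were aligned. In the same 6 HFD embryos, 52, 66, 78, 88 and 2 with numbers over 100, all 4 copies exceeded every LFD embryo, with Gm10925 at 72.3 to 827 CPM against a highest LFD value of 39.2 and medians of 4.10 in HFD and 2.67 in LFD embryos. In HFD embryo 78 this was 8.08% of the mt-Atp6 count, and over all embryos the 4 copies held 0.0663% to 0.185% of the counts of their mRNA. Adding the copies' counts to the mRNAs left the difference of mean log2 CPM at 0.41 for mt-Atp6, 0.34 for mt-Co3, 0.26 for mt-Co2 and 0.30 for mt-Co1. With such small shares these sums could hardly move. Reads that matched several places were left out of both counts, so the sums do not settle the uncertainty.

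**Figure D5:**
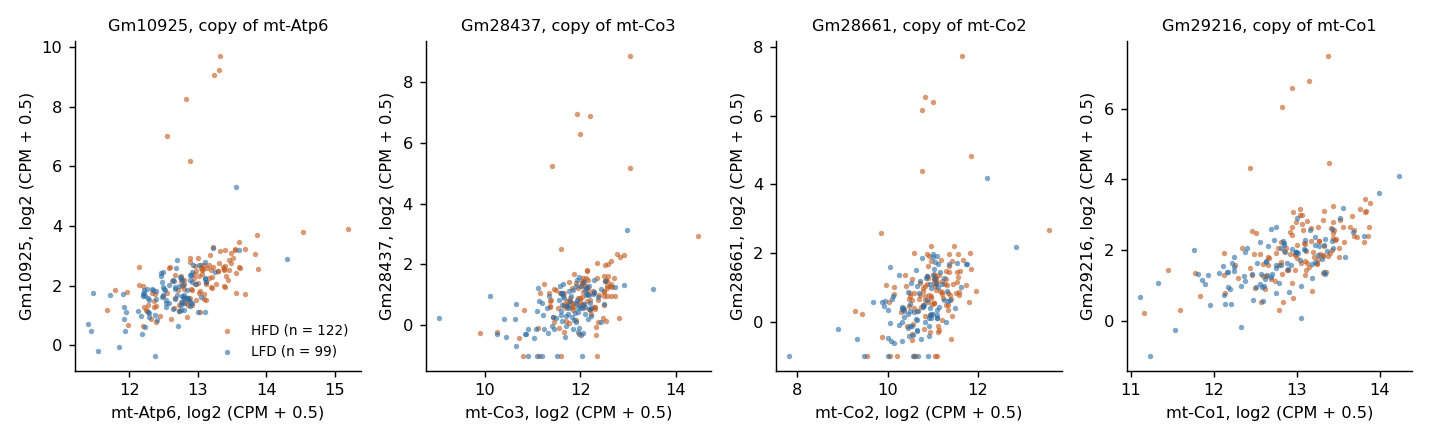
Levels of 4 nuclear copies on chromosome 1 against those of the mitochondrial mRNA they resemble, in log2 (CPM + 0.5), with 1 point for each embryo. In 6 HFD embryos the copies lie above all LFD embryos, while the mRNA lies within the range of the other embryos.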

How the data were processed

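Smart-seq2 libraries of 122 HFD and 99 LFD embryos (221 in all) were grouped by their titles. The authors deposited unnormalized counts for each gene. Methods and notes of the study name Trim Galore 0.6.6 for trimming and STAR 2.7.10a for alignment to GRCm38 carrying Staudach mitochondrial DNA. featureCounts 2.0.3, as its header states, counted single reads over Ensembl 102 exons by gene name on the reverse strand (setting 2), with both ends aligned. By its defaults, reads in several genes or places were left out, and 65.8% of counts above 0 were even. Genes were named by rule: the 6 members, the 7 complex I mRNAs and mt-Ts1, the 3 lowest p per nuclear list (subunits of complexes III, IV and V, assembly factors, mRNA stability factors), the 6 nuclear genes with the highest rho, and nuclear genes sharing at least 80% of their stretches of 31 bases with a member.

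Differential expression was tested in R 4.3.3 with edgeR 4.0.16 (TMM, filterByExpr by diet, robust quasi-likelihood test, FDR threshold 0.05). DESeq2 1.42.0, limma-voom (limma 3.58.1), other scalings, covariates and left-out libraries were alternatives. Permutation tests used 100000 draws and 0.5 added to counts, and intervals are Welch intervals of the mean difference. p-values measure the spread between embryos only. No library was merged, as the most similar pairs differed by at least 13.0 chi-square units per gene. Tests were checked on simulated data. Every sample column was used. Reads were amplified by PCR and carry no molecular identifiers, so counts are not molecules. The members and gene lists were chosen with earlier results of these data known.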

Additional observations from a re-analysis of the deposited data

How the results depend on the processing

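In 16 alternatives, of which 5 were chosen after seeing the data, no change of the 6 mRNAs turned direction, and at least 5 of 6 were called in all but 1. That exception, edgeR without embryos 31 to 70 of either diet, called 0 of the 6, 0 nuclear partner subunits and 54 genes in all, and turned mt-Nd6 (-0.11), Cox7c (-0.05) and Uqcr10 (-0.000487). mt-Co2 was not called in 8 alternatives and mt-Cytb in 2. The 6 ratios to nuclear subunits kept direction and call in all 54 tests, with p adjusted over 6 ratios and not over all genes as for the levels. Genes called went from 318 to 7007 without the low-count filter, 86 with number ranges as random effect, 175 without HFD embryos 31 to 70 and 584 without libraries under 16000 genes. Nuclear partner subunits called went from 1 to 2 without the filter and with DESeq2, to 3 without libraries under 16000 genes, and to 0 with number ranges, without HFD embryos 31 to 70 and without both.

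The embryo numbers did not pair the samples, as 20 of 94 shared numbers had correlated deviations over 0.1 (median 0.01). The replicate block used limma-voom on the 188 embryos with shared numbers. It called 796 genes, 2 partner subunits and not mt-Co2 (0.25, FDR = 0.052), and the paired test called 7 of 15 ratios among the 6 in place of 0. Unpaired tests on those embryos, added after seeing the data, called 809 genes, 2 partner subunits and 7 ratios, close to the counts with pairing. Of the 15 ratios, 3 were called without HFD embryos 31 to 70, 2 without these and the libraries under 16000 genes, and 2 without embryos 31 to 70 of either diet. In the first and second of these settings 8 ratios turned direction: mt-Cytb to mt-Co3 (-0.20, -0.16), mt-Cytb to mt-Co2 (-0.18, -0.13), mt-Cytb to mt-Co1 (-0.16, -0.12), mt-Atp6 to mt-Co3 (-0.07, -0.05), mt-Atp6 to mt-Co2 (-0.04, -0.02), mt-Atp6 to mt-Co1 (-0.02, -0.01), mt-Atp8 to mt-Co3 (-0.02 in both) and mt-Co2 to mt-Co1 (0.02, 0.0038). In the third, mt-Cytb to mt-Co3 (-0.18), to mt-Co2 (-0.14) and to mt-Co1 (-0.12), mt-Atp6 to mt-Co3 (-0.04) and mt-Co2 to mt-Co1 (0.03) turned, and without only the libraries under 16000 genes mt-Cytb to mt-Co3 (-0.02). The cause of these changes was not tested. Depth did not limit these mRNAs, whose lowest count in an embryo was 253.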
